A study of Homo sapiens with 32 samples.

Results

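The 4 CDC-like kinases, CLK1, CLK2, CLK3 and CLK4, were followed at the RNA level in 4 human endometrial cancer cell lines given SM08502, a small-molecule CLK inhibitor, paclitaxel, a taxane that stabilises microtubules, or both drugs. The 4 genes were taken by symbol from the 35238 genes of the expression table, and all 4 passed the filter on low values, as did 17011 genes in all. Each line had 4 groups of 2 libraries, 32 libraries in total, and every group, the vehicle controls included, was exposed to 0.1% DMSO for 24 h. The vehicle groups received DMSO alone. The drugs were given at concentrations set by each line's own viability curve, so the dose differed between lines: 11 nM paclitaxel and 80 nM SM08502 in Ishikawa, 11.7 and 350.7 nM in SNGM, 5.6 and 149 nM in HEC265, and 6 and 85 nM in Ishikawa-S33Y. The combination groups received both drugs at the same concentrations. Ishikawa is an endometrial adenocarcinoma line whose CTNNB1 gene, which encodes beta-catenin, is wild-type; Ishikawa-S33Y derives from it and carries a mutant CTNNB1; SNGM and HEC265 are further CTNNB1-mutated endometrial cancer lines. With 1 line for wild-type CTNNB1 and 1 derivative of it, CTNNB1 status, line, dose and RNA input (350 ng for Ishikawa and 500 ng for the other lines) cannot be told apart. The replicates were duplicate platings, so p-values measure the spread between these.

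CLKs are nuclear dual-specificity kinases of the LAMMER family. They phosphorylate the arginine-serine (RS) domains of SR proteins, which releases these splicing factors from nuclear speckles to act on pre-mRNA, and the SR protein kinases SRPK1 and SRPK2 act on the same domains, largely in the cytoplasm. CLK1 is known for control of its own splicing, with transcripts that skip an exon or keep introns, and CLK4 is its closest paralogue. The abundances below are gene-level, so such isoforms were not separated, and splicing itself was not analysed here.

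Library depth was 13026400 to 34127623 recovered reads in 30 libraries, and 2991041 and 1607038 in combination replicate 2 of Ishikawa-S33Y and of SNGM. The shallow SNGM library held 138, 49, 85 and 80 reads of CLK1, CLK2, CLK3 and CLK4. All 5 epithelial markers were detected in every library, with a sum of 702 to 2970 CPM (a gene's reads per 1000000 reads of the library), and the summed leukocyte and endothelial lists reached at most 5.86 and 11.1 CPM. The summed endometrial lineage list stood at 194 to 782 CPM, with PAX8 detected in every library. Its other members SOX17, PAX2, ESR1 and PGR were at 0 in 7, 10, 1 and 15 libraries. The summed fibroblast list reached 1160 CPM in Ishikawa-S33Y through COL1A1, while LUM and PDGFRB stayed under 1 CPM. A score that sets long transcripts against ribosomal protein genes was lowest in Ishikawa (-2.63 to -1.14) and highest in SNGM (-0.49 to 0.19); its part in differences between lines was not tested beyond its use as a covariate.

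On GRCh38, RefSeq places CLK1 at chr2:200853009-200864658, CLK2 at chr1:155262868-155273504 and CLK4 at chr5:178602664-178627050, all on the minus strand, and CLK3 at chr15:74608372-74630201 on the plus strand. The 250 bases before each gene's outermost RefSeq start (GRCh38.p14) are printed because CLK1 and CLK4 moved together in the data below while CLK2 moved least. Capitals mark matches, searched on both strands, to the SP1/KLF box GGGCGG, to the CCAAT box, to the canonical E-box motif CACGTG, to the half-site of the cAMP response element, TGACG, or to the TATA box, searched as TATAA.
CLK1 promoter (chr2:200864659-200864908, minus strand): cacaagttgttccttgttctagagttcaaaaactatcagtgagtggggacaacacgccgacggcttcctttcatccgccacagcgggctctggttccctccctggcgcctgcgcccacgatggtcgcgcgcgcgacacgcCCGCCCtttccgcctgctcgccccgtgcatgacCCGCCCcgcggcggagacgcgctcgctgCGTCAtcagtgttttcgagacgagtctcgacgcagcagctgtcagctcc
CLK2 promoter (chr1:155273505-155273754, minus strand): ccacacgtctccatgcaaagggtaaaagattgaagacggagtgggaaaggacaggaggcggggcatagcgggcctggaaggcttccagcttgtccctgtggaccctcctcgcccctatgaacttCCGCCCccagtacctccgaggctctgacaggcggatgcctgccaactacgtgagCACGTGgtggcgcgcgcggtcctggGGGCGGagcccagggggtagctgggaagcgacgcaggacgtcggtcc
CLK3 promoter (chr15:74608122-74608371, plus strand): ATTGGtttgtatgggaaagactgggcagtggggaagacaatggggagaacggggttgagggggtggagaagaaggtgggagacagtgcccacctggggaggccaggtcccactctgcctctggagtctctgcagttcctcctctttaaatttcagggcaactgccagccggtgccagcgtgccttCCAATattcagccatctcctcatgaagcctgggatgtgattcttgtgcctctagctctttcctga
CLK4 promoter (chr5:178627051-178627300, minus strand): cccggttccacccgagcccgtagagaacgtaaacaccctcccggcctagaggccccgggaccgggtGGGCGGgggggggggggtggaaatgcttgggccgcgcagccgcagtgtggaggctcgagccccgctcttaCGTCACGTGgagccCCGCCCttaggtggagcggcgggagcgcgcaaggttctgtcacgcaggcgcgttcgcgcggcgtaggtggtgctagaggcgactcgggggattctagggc
The CLK1, CLK2 and CLK4 windows each held 2 matches to GGGCGG. At least 1 match was present in 42.6% of 35116 RefSeq promoter windows of the same length. The shares of all windows that follow also count windows with at least 1 match. CLK1 and CLK4 each held 1 TGACG (21.2% of all windows), and CLK2 and CLK4 each held 1 CACGTG (6.3%); in CLK4 the TGACG and CACGTG matches overlap. The outermost CLK3 window held 2 CCAAT matches (32% of all windows) and none of the other letters, whereas the window before its inner start at position 74615836 held 2 GGGCGG and 1 TGACG. No window held TATAA, found in 18.9% of all windows. The GC content of the 4 printed windows was 64.4%, 65.2%, 55.6% and 71.2% for CLK1 to CLK4, against a median of 58.0% over all windows. These are letter matches in fixed windows and no binding was measured.

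Under vehicle, reads of all 4 paralogues were found in every library. CPM is a share of a library's reads, so fewer cells expressing a gene and less of its RNA per cell cannot be told apart. CLK1 stood at 26.6 and 28.5 CPM in the 2 Ishikawa libraries, 25.6 and 26.5 in SNGM, 17.6 and 18.6 in Ishikawa-S33Y and 15.1 and 16.3 in HEC265. Ishikawa and SNGM thus formed a higher pair and Ishikawa-S33Y and HEC265 a lower pair, with no overlap between the pairs. This and the other groupings of lines were named from the values, and the share of all genes that split the lines alike was not computed. Differences between lines were common, with 48.3% to 66.8% of genes called between 2 lines under vehicle. CLK4 stood at 11.9 and 12.3 CPM in Ishikawa, 11.3 and 11.5 in HEC265, 10.7 and 11.6 in SNGM, and 8.13 and 7.55 in Ishikawa-S33Y, the line set apart for this gene. CLK3 ranged from 40.7 to 43.5 CPM over the 6 libraries of the other lines and stood lower in HEC265, at 29.0 and 29.3. CLK2 was the most even, from 19.5 CPM in SNGM to 24.6 in HEC265.

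In the limma fit to log2(CPM + 1) over all 32 libraries, with Benjamini-Hochberg adjustment over all 17011 genes and a call at adjusted p under 0.05, CLK1 was lower in Ishikawa-S33Y than in its parent Ishikawa by a log2 difference of -0.58 (SE 0.14, adjusted p = 0.00173), and CLK4 by -0.57 (SE 0.16, adjusted p = 0.00701). These 2 of 4 members compare with 48.3% of all genes called between the same lines. HEC265 was lower than Ishikawa in CLK1 (-0.77, adjusted p = 5.44e-05) and CLK3 (-0.52, adjusted p = 0.00415), against 63.3% of genes called. HEC265 was lower than SNGM in the same genes (CLK1 -0.70, adjusted p = 2.38e-04; CLK3 -0.52, adjusted p = 0.00540; 54.9% of genes called). Against Ishikawa-S33Y, HEC265 was lower in CLK3 (-0.48, adjusted p = 0.00815) and higher in CLK4 (0.49, adjusted p = 0.0147; 58% of genes called), and SNGM was higher in CLK1 (0.50, adjusted p = 0.00386) and CLK4 (0.46, adjusted p = 0.0201; 60.8% called). None of the 4 passed between SNGM and Ishikawa, where 66.8% of genes were called, and none had an unadjusted p under 0.05 there; limma voom on recovered reads called none either. CLK2 passed in none of the 6 pairs in this fit, with an unadjusted p under 0.05 in SNGM against Ishikawa-S33Y and against HEC265, and limma voom called it in both (-0.29, adjusted p = 0.0296, for SNGM minus Ishikawa-S33Y and 0.27, adjusted p = 0.0387, for HEC265 minus SNGM). In these 2 pairs voom called 11496 and 10776 of the 17011 genes. Over the 6 pairs, limma called 0 to 2 of the 4 members, against 48.3% to 66.8% of all genes. The CLK4 differences from Ishikawa-S33Y lost their call when Ishikawa-S33Y vehicle replicate 2 was left out (adjusted p = 0.0529 against Ishikawa, 0.103 for SNGM and 0.0843 for HEC265). The SNGM difference in CLK4 also lost it with the replicate block (0.34, adjusted p = 0.119) and when fitted on the samples of those lines alone (adjusted p = 0.0752). With SNGM vehicle replicate 2 left out it had an adjusted p of 0.103, and with HEC265 vehicle replicate 1 or 2 left out the HEC265 difference had 0.0530 or 0.0623. With the length score as a covariate, CLK1 differed from Ishikawa by -0.26 in Ishikawa-S33Y (adjusted p = 0.198) and -0.37 in HEC265 (adjusted p = 0.0773), and CLK4 in Ishikawa-S33Y by -0.33 (adjusted p = 0.222).

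As shares of the reads of all 4 genes, the vehicle libraries gave CLK3 35.9% to 45.1%, CLK2 20.0% to 30.1%, CLK1 19.1% to 26.5% and CLK4 8.20% to 14.3%. Longer transcripts collect more reads and no transcript lengths were used here, so these shares compare lines and treatments, not the number of molecules of one paralogue with another. The HEC265 pool differed most in make-up, with the lowest CLK3 share (36.7% and 35.9%) and the highest CLK2 (30.0% and 30.1%) and CLK4 shares (14.3% and 14.1%).

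With SM08502 the RNA of all 4 CLKs rose in all 4 lines, and over the mean of the lines most for CLK1 and CLK4 and least for CLK2. All 4 members were called higher in each line, against 3.8% of genes in SNGM, 6.5% in Ishikawa, 9.27% in HEC265 and 18.5% in Ishikawa-S33Y, and 149 genes, 0.876% of those tested, were called higher in all 4 lines. Over the mean of the 4 lines, where 22.6% of genes were called higher, the log2 rise was 1.53 for CLK1 (SE 0.07, adjusted p = 6.07e-12), 1.46 for CLK4 (SE 0.08, adjusted p = 4.65e-11), 1.10 for CLK3 (SE 0.07, adjusted p = 5.45e-10) and 0.54 for CLK2 (SE 0.06, adjusted p = 5.43e-07), against a median of 0.05 over all genes. Ordered by the size of this mean rise, CLK1 ranked 6 of 17011 genes, CLK4 8, CLK3 33 and CLK2 551. The drug was given at the line's own concentration, so these rises are not at matched doses.

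**Figure D1:**
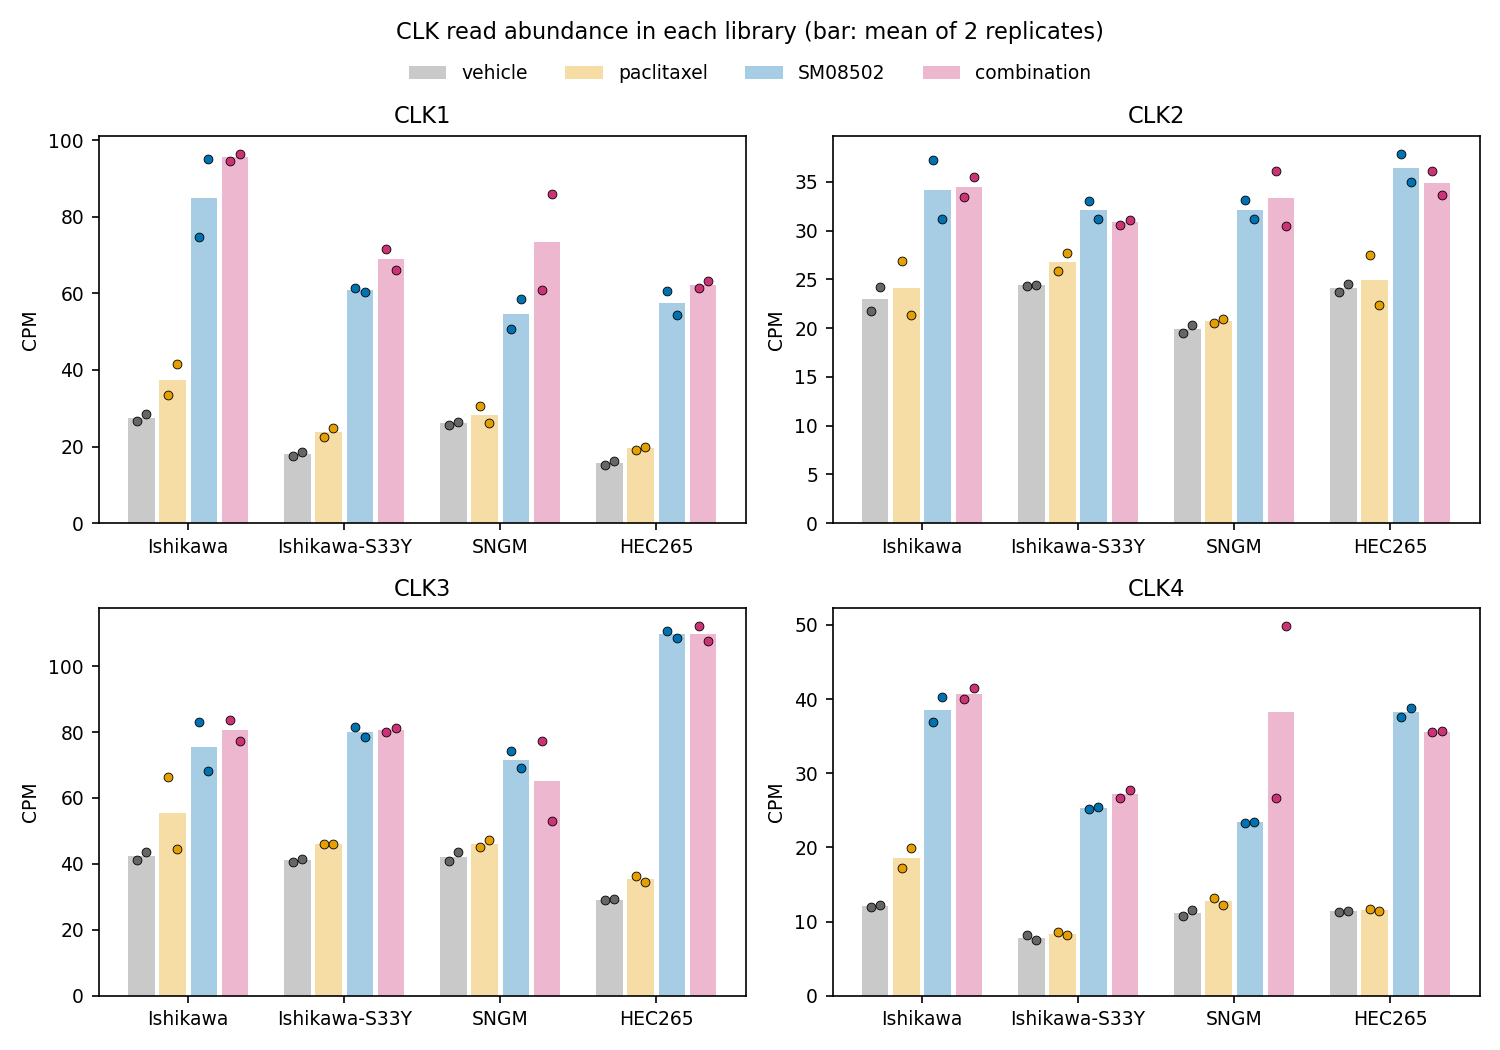
CPM of each CLK (y axis, linear, from 0) in the 4 lines (x axis); points are the 2 libraries of a group, bars their mean and colours the treatments. Within each line, SM08502 and combination libraries lie above vehicle and paclitaxel libraries for all 4 genes, and the SNGM combination group has a wide CLK4 pair (26.6 and 49.8 CPM).

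CLK1 reached 74.8 and 95.2 CPM with SM08502 in Ishikawa, 60.5 and 54.5 in HEC265, 61.5 and 60.3 in Ishikawa-S33Y and 50.7 and 58.5 in SNGM. Every treated library lay above all 8 vehicle libraries. The log2 rise was largest in HEC265 at 1.81, followed by 1.70 in Ishikawa-S33Y, 1.58 in Ishikawa and 1.04 in SNGM, each with an SE of 0.14. HEC265, lowest under vehicle, ended within the range of Ishikawa-S33Y and SNGM.

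CLK4 reached 36.9 and 40.3 CPM in Ishikawa, 37.6 and 38.9 in HEC265, 25.1 and 25.4 in Ishikawa-S33Y and 23.3 and 23.5 in SNGM. Ishikawa and HEC265 were the higher pair and did not overlap the other lines, a split for which the share of all genes was not computed. The log2 rise was 1.59, 1.66, 1.57 and 1.01 in the same order (SE 0.16). In Ishikawa only 11 of 17011 genes rose more than CLK4, which ranked 12, with CLK1 next at 13.

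CLK3 reached 110.7 and 108.7 CPM in HEC265, 81.5 and 78.4 in Ishikawa-S33Y, 83.0 and 68.1 in Ishikawa, and 74.3 and 69.02 in SNGM. HEC265 was the lowest line for CLK3 under vehicle and the highest with SM08502, with no overlap on either side. The share of all genes with such a change of order was not computed. The log2 rise was 1.88 (SE 0.15, 3.67-fold) in HEC265, where CLK3 ranked 8, ahead of CLK1 at 10 and CLK4 at 14, and 0.75 to 0.94 in the other 3 lines, where it ranked 263 to 394.

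CLK2 rose from 19.5 to 24.6 CPM under vehicle to 31.1 to 37.9 CPM with SM08502 over the 8 libraries of each group. Its log2 rise was 0.66 in SNGM (SE 0.12, adjusted p = 0.00126), 0.57 in HEC265 (adjusted p = 0.00249), 0.55 in Ishikawa (adjusted p = 0.00388) and 0.38 in Ishikawa-S33Y (adjusted p = 0.0209). In Ishikawa-S33Y, 24.6% of genes rose more than CLK2, and the call there was lost without either vehicle library (adjusted p = 0.0908 without replicate 1 and 0.0915 without replicate 2) or either SM08502 library (0.124 and 0.0634). In Ishikawa it was lost without vehicle replicate 1 (0.47, adjusted p = 0.0543). When each line was fitted on its own 8 libraries, 2 members kept their call in Ishikawa and 0 in SNGM (adjusted p 0.0676 to 0.177), at the same fold changes; limma voom on recovered reads called all 4 in every line.

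**Figure D2:**
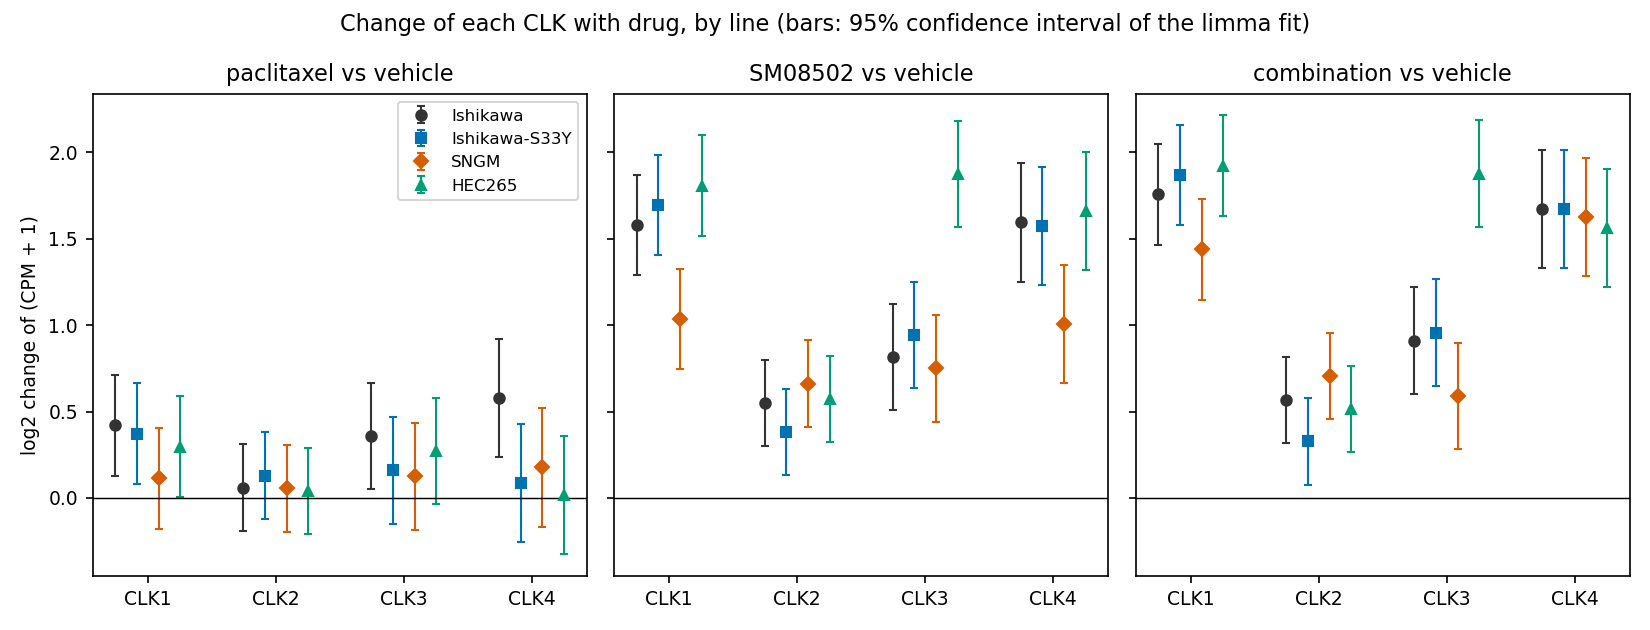
Log2 change of (CPM + 1) against vehicle (y axis) for each CLK (x axis), with 1 panel per treatment; symbols are lines and bars the 95% confidence interval of the limma fit. Intervals for SM08502 and the combination lie above 0 for all genes and lines, and CLK3 in HEC265 (1.88 with either) stands above CLK3 in the other lines.

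The size of the SM08502 response differed between lines for CLK3 and, less firmly, for CLK1. The CLK3 rise in HEC265 exceeded that in Ishikawa by 1.06 (SE 0.21, adjusted p = 0.00847), in Ishikawa-S33Y by 0.93 (adjusted p = 0.00973) and in SNGM by 1.13 (adjusted p = 0.00586). These contrasts called 2.56%, 5.66% and 2.03% of all genes. The first of them missed the threshold without Ishikawa SM08502 replicate 2 (0.92, adjusted p = 0.0552) and the second without Ishikawa-S33Y SM08502 replicate 2 (0.90, adjusted p = 0.0521); the third held under all 22 alternatives. The CLK1 rise was smaller in SNGM than in Ishikawa-S33Y by a difference of -0.66 (SE 0.20, adjusted p = 0.0378; 9.83% of genes called) and larger in HEC265 than in SNGM by 0.77 (adjusted p = 0.0453). These CLK1 calls were lost in 10 and 13 of 22 alternatives, among them every fit without 1 library of either line except SNGM SM08502 replicate 2 for the first. No member passed between Ishikawa-S33Y and Ishikawa (2.43% of genes called) or between SNGM and Ishikawa (3.66% called). At an unadjusted p under 0.05 the first pair had 0 members and 2934 of 17011 genes. The second pair had 2 members and 3230 genes. Limma voom called 0 members in both, with 607 and 883 genes called. In SNGM against Ishikawa, 1 member passed without Ishikawa SM08502 replicate 1. CLK2 and CLK4 passed in no pair of lines in this fit. Limma voom called CLK4 as well as the members above in 2 pairs. The CLK4 rise was smaller in SNGM than in Ishikawa-S33Y (-0.62, adjusted p = 0.0320) and larger in HEC265 than in SNGM (0.68, adjusted p = 0.0293). Over all genes, voom called 2445 in the first of these pairs and 776 in the second. SNGM, with the smallest CLK1 and CLK4 rises, had the highest SM08502 concentration, and dose cannot be told apart from line.

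The summed CPM of the 4 genes rose with SM08502 to 3.01 times vehicle in HEC265, 2.22 in Ishikawa, 2.17 in Ishikawa-S33Y and 1.83 in SNGM, and the make-up of the pool shifted. The following shares are sums over the members and are given as a description, with no test. The CLK1 share went from 26.3% in both Ishikawa vehicle libraries to 32.2% and 40.6%, from 19.4% and 20.2% to 30.6% and 30.9% in Ishikawa-S33Y, from 26.5% and 25.99% to 27.9% and 32.1% in SNGM, and from 19.1% and 19.9% to 24.5% and 23.0% in HEC265. The CLK1 and CLK4 shares were thus above vehicle in all 4 lines and the CLK2 share below it in all 4. CLK3 lost share in Ishikawa, Ishikawa-S33Y and SNGM and gained it in HEC265, from 36.7% and 35.9% to 44.9% and 45.9%. The ratio of CLK1 to CLK4 reads overlapped the vehicle ratio in all 4 lines (1.34 and 1.42 under vehicle against 1.61 and 1.40 with SM08502 in HEC265, for instance), while the ratio of CLK1 to CLK2 was above vehicle in all 4.

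**Figure D3:**
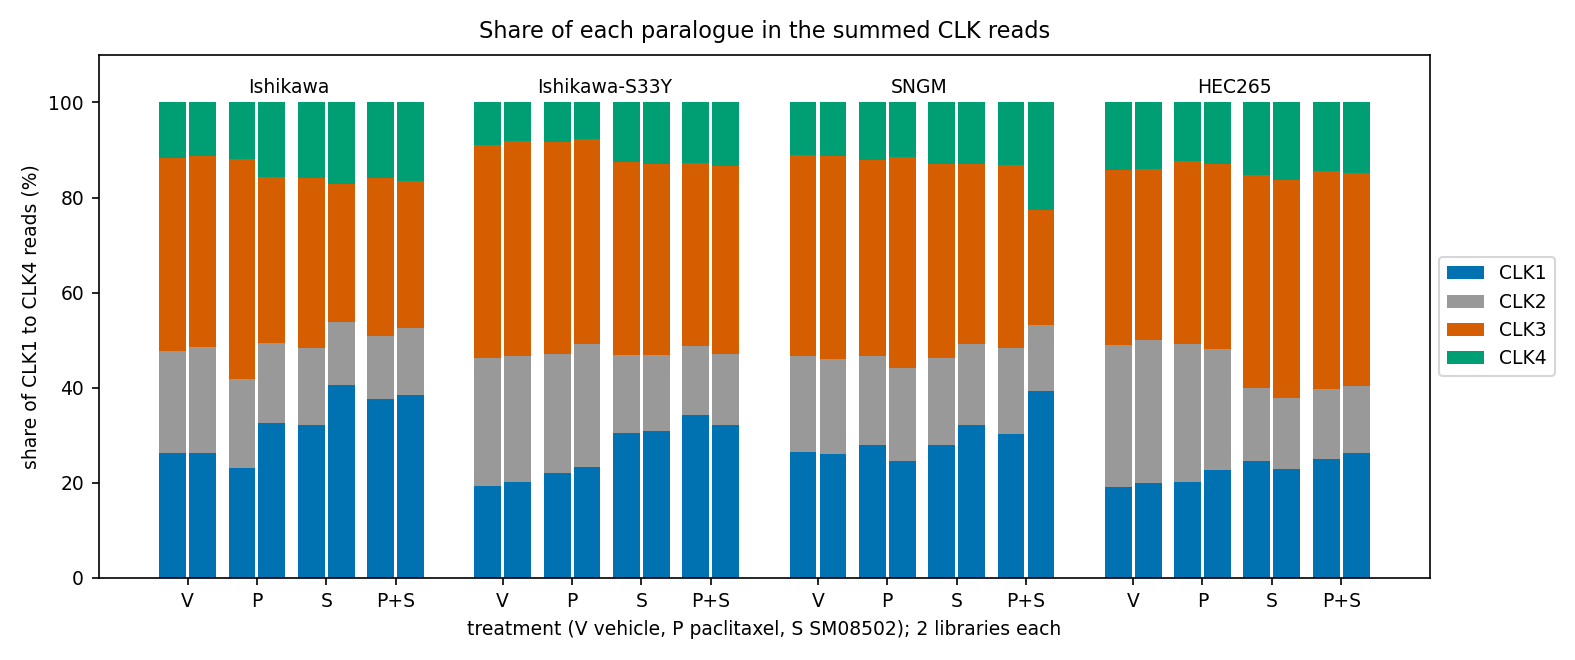
Share of each paralogue in the summed CLK reads (y axis, %) in each of the 32 libraries (x axis, grouped by line and treatment). The CLK2 band narrows from vehicle to SM08502 and the combination in every line, and the CLK3 band widens with either only in HEC265.

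Paclitaxel alone gave small positive differences, none of which passed the test. The log2 difference from vehicle was above 0 for all 4 members in all 4 lines, 16 of 16, and 8.98% of all genes were likewise positive in all 4 lines. This count depends on the scaling: in HEC265, median re-centring gave -0.015 for CLK2 and -0.036 for CLK4, and quantile normalization -0.0018 and -0.027. CLK1 stood at 33.4 and 41.5 CPM in Ishikawa, 30.5 and 26.1 in SNGM, 22.6 and 24.9 in Ishikawa-S33Y and 19.0 and 20.0 in HEC265. These libraries lay above both vehicle libraries of their line in Ishikawa, Ishikawa-S33Y and HEC265 and overlapped them in SNGM. CLK3 lay above vehicle in all 4 lines, at 66.5 and 44.6, 45.9 and 46.1, 45.0 and 47.1, and 36.4 and 34.4 CPM in the order Ishikawa, Ishikawa-S33Y, SNGM and HEC265. Over all members and lines both paclitaxel libraries lay above both vehicle libraries in 12 of 16 cases, against 13.3% of genes in Ishikawa, 14.6% in SNGM, 24.3% in Ishikawa-S33Y and 28.8% in HEC265.

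Over the mean of the lines the paclitaxel difference was 0.30 for CLK1 (95% confidence interval 0.15 to 0.45), 0.23 for CLK3 (0.07 to 0.38), 0.21 for CLK4 (0.04 to 0.39) and 0.07 for CLK2 (-0.05 to 0.20). Limma called 0% of genes in this contrast, with 480 genes at an unadjusted p under 0.05, and the adjusted p was 1 for each member; limma voom called 0 genes. By line, limma called 0.0118% of genes in Ishikawa, 0.0176% in SNGM, 0.00588% in HEC265 and 0% in Ishikawa-S33Y (122 at an unadjusted p under 0.05 and 0 by voom). Of the 17011 genes, 1254 in Ishikawa, 300 in SNGM and 158 in HEC265 had an unadjusted p under 0.05. Of the 16 member differences, 5 had one, 3 of them in Ishikawa, and 0 were called by either tool. The largest were in Ishikawa, CLK4 with 0.58 (adjusted p = 0.330) and CLK1 with 0.42 (adjusted p = 0.433). The 2 Ishikawa paclitaxel libraries differed from each other in the length score (-1.14 and -2.63) and in CLK3. Without replicate 2 the CLK3 difference was 0.64 (adjusted p = 0.0481). CLK1 was called with the length score as a covariate (0.48, adjusted p = 0.0493), and CLK4 without the 2 libraries under 5000000 reads (0.58, adjusted p = 0.00911), libraries of other lines that enter only through the shared spread. The CLK2 share of the pool was below vehicle with paclitaxel in all 4 lines, with the smallest gap in SNGM (18.8% and 19.7% against 20.2% and 20.0%).

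With both drugs, all 4 members were called higher than vehicle in every line, against 10.8% of genes in SNGM, 11.6% in Ishikawa, 12.4% in HEC265 and 24% in Ishikawa-S33Y. The mean log2 rise, with 29% of genes called higher, was 1.75 for CLK1 (SE 0.07, adjusted p = 4.17e-13), 1.63 for CLK4 (SE 0.08, adjusted p = 5.17e-12), 1.08 for CLK3 (SE 0.07, adjusted p = 4.03e-10) and 0.53 for CLK2 (SE 0.06, adjusted p = 4.06e-07). These rises share their vehicle libraries with the SM08502 rises above. The weakest was CLK2 in Ishikawa-S33Y, at 0.33 (adjusted p = 0.0337), which missed the threshold without either vehicle library (adjusted p = 0.114 and 0.111) or either combination library (0.0765 and 0.113). CLK3 in SNGM rose by 0.59 (adjusted p = 0.00848), and missed it without SNGM vehicle replicate 1 (0.55, adjusted p = 0.0643) or combination replicate 1 (0.32, adjusted p = 0.103). When each line was fitted on its own 8 libraries, CLK2 (adjusted p = 0.113) and CLK3 (0.0693) lost the call in Ishikawa and CLK3 (0.130) in SNGM. The number of all genes called in these fits is not given here either, so these losses are only a description.

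Set directly against SM08502 alone, the combination gave no called change in any CLK. CLK1 was at 94.6 and 96.4 CPM in Ishikawa, 61.4 and 63.1 in HEC265, 71.5 and 66.2 in Ishikawa-S33Y and 60.9 and 85.9 in SNGM. These lay above both SM08502 libraries in Ishikawa-S33Y, SNGM and HEC265 and overlapped them in Ishikawa. CLK4 lay above them in Ishikawa-S33Y and SNGM, overlapped them in Ishikawa and lay below them in HEC265 (35.5 and 35.7 against 37.6 and 38.9 CPM). CLK2 lay below them in Ishikawa-S33Y and overlapped them in the other 3 lines, and CLK3 overlapped them in all 4. The share of all genes that lay apart in this way was not computed for this comparison, so these positions are only a description. Between paclitaxel and vehicle, also 2 libraries against 2, 13.3% to 28.8% of genes lay above. The mean log2 difference was 0.22 for CLK1 (95% confidence interval 0.07 to 0.36, adjusted p = 0.240) and 0.17 for CLK4 (0.00 to 0.35, adjusted p = 0.426). It was -0.01 for CLK2 (-0.14 to 0.11) and for CLK3 (-0.17 to 0.14). Limma called 0.047% of genes in this mean, 0% in Ishikawa (308 at an unadjusted p under 0.05 and 0 by voom), 0.00588% in HEC265, 0.129% in Ishikawa-S33Y and 0.253% in SNGM. In SNGM, 2704 of 17011 genes had an unadjusted p under 0.05. Of the 16 member differences by line, 2 had one, both in SNGM, and voom called 0.

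Those 2 were CLK4 with 0.62 (adjusted p = 0.0973) and CLK1 with 0.40 (adjusted p = 0.169), and they rested on the shallow library. SNGM combination replicate 2 had 49.8 CPM of CLK4 against 26.6 in replicate 1, 85.9 against 60.9 of CLK1, and 52.9 against 77.3 of CLK3. Without the 2 libraries under 5000000 reads the SNGM differences were 0.18 for CLK4, 0.16 for CLK1, 0.16 for CLK2 and 0.11 for CLK3. With only that shallow library kept (SNGM combination replicate 1 left out), they were 1.06 for CLK4, 0.65 for CLK1, -0.07 for CLK2 and -0.43 for CLK3. The mean over lines was then 0.28 for CLK1 and 0.28 for CLK4. Without the libraries under 5000000 reads it was 0.17 for CLK1 and 0.06 for CLK4.

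The departure of the combination from the sum of both single-drug changes on the log2 scale was -0.08 for CLK1, -0.08 for CLK2, -0.24 for CLK3 (95% confidence interval -0.46 to -0.02) and -0.04 for CLK4. The adjusted p was 0.998 for each, and limma called 0% of genes, with 573 at an unadjusted p under 0.05 and 1 member among them; voom called 0 genes.

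Across the 32 libraries, with log2(CPM + 1) centred on the mean of each line, CLK1 and CLK4 followed each other more closely than either followed any other of the 12118 genes with a mean log2(CPM + 1) of at least 2 (Pearson r = 0.985). The 8 libraries of a line share their treatments, so every gene that responds to SM08502 shares this pattern, and r is given as a description. The next most like CLK1 were VDAC1P8, a pseudogene of the mitochondrial channel VDAC1 (r = 0.983), BCCIP, a BRCA2-interacting protein (0.973 with either CLK1 or CLK4), C1orf27 (0.971) and TOMM20, a mitochondrial import receptor (0.970). CLK4 was also followed by VDAC1P8 (0.972), C1orf27 (0.965) and ELMOD3 (0.962). VDAC1P8 may share reads with VDAC1 and its other copies, and is uncertain for that reason. The correlation of CLK1 was 0.887 with CLK3 and 0.861 with CLK2. CLK3 was most like VRK3, a kinase of the vaccinia-related family (0.956), CXorf38 (0.951), the tubulin acetyltransferase ATAT1 (0.941), VPS33A (0.939) and NBPF3 (0.932). CLK2 was most like the mitotic kinase NEK9 (0.924), TSTA3 (0.923), CCDC25 (0.923), CCAR1 (0.920) and GGCX (0.920). Neither the genes most like CLK2 nor those most like CLK3 were shared with another member, and only those of CLK1 and CLK4 overlapped.

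**Figure D4:**
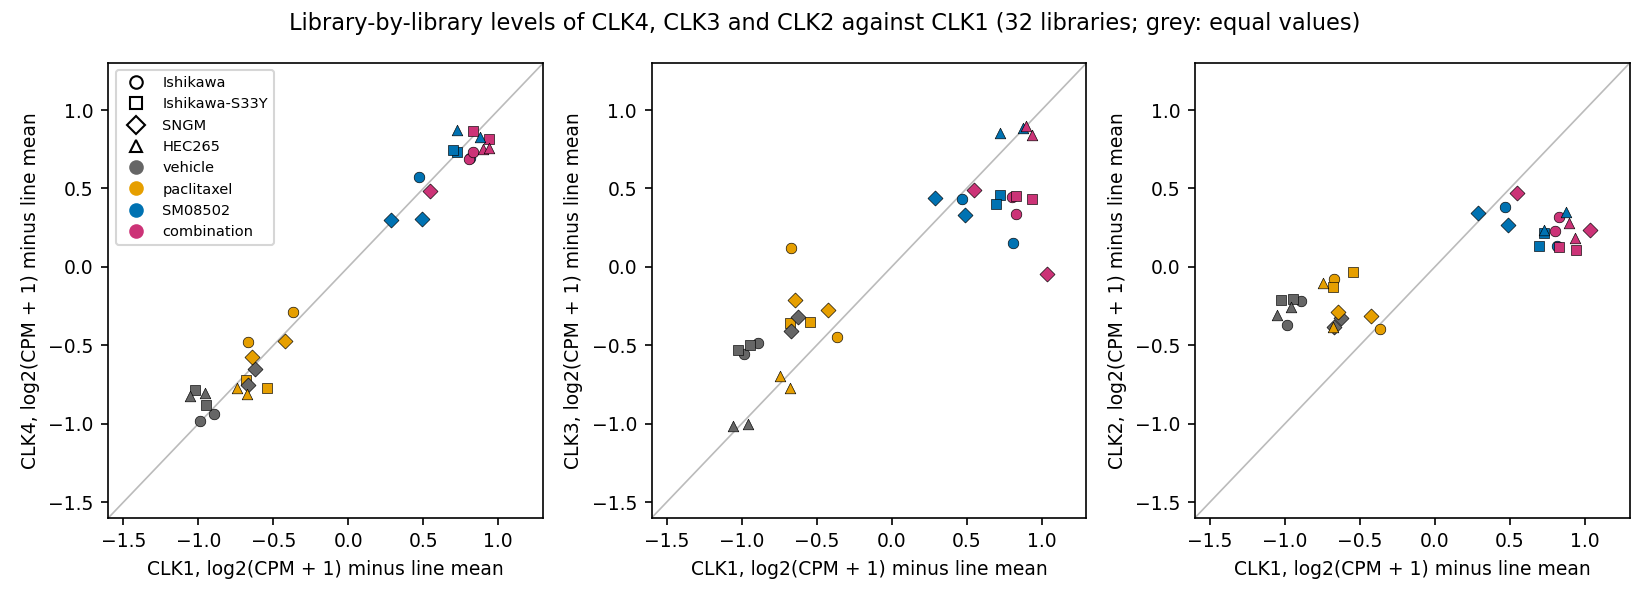
Level of CLK4, CLK3 and CLK2 (y axes) against CLK1 (x axis) in 32 libraries, each as log2(CPM + 1) minus the mean of its line; symbols are lines, colours treatments and the grey line equal values. CLK4 lies along the grey line (r = 0.985), CLK3 only in HEC265, and CLK2 spans a narrower range.

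Reads shared with copies or neighbours were looked at next. The pseudogene CLK2P1 had 2 reads over all libraries and CLK3P2 had 0. PPIL3, 6249 bp from CLK1, changed with SM08502 by -0.26 to 0.13 and was called in no line. SCAMP3, 508 bp from CLK2, was called higher in Ishikawa-S33Y (0.44, adjusted p = 0.00741), SNGM (0.43, adjusted p = 0.0250) and HEC265 (0.60, adjusted p = 0.00130). The CLK2 values in these 3 lines were 0.38, 0.66 and 0.57; differences between neighbours were not tested. HCN3, on the other side of CLK2, was called in no line. EDC3, 357 bp from CLK3, was called higher in Ishikawa-S33Y (0.64) and HEC265 (0.70), where CLK3 rose by 0.94 and 1.88, and ARID3B only in Ishikawa-S33Y (0.72, adjusted p = 0.0167). CLK3-AS1 and RN7SKP70 overlap CLK3 and CLK4 and were not matched to a symbol in the table. Whether counting used strand is not given in the sources used here, so antisense reads cannot be told apart from those of CLK3. COL23A1, the nearest protein-coding gene beside CLK4, had a median of 0.171 CPM and was called in no line.

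The substrates and related kinases of the CLKs did not show a common direction with SM08502. Of 12 SR protein genes, 2 were called higher over the mean of the lines and 4 lower, with a median log2 change of -0.07 against 0.05 for all genes, of which 22.6% were called higher and 15.8% lower. SRSF6 rose by 0.31 (SE 0.04, adjusted p = 6.72e-06) and was called in Ishikawa, Ishikawa-S33Y and HEC265. In SNGM it stood at 109 ± 1.76 CPM under vehicle and 109 ± 2.30 with SM08502 (SD, n = 2). SRSF10 rose by 0.25 and was called in 2 lines. SRSF2, which binds exonic enhancers, fell by 0.53 (SE 0.06, adjusted p = 6.29e-07), from 291 ± 11.7 to 199 ± 3.28 CPM in Ishikawa. SRSF1, SRSF4 and SRSF8 fell by 0.22, 0.24 and 0.29. By line, SRSF2 was called lower in 3 lines, SRSF1 in 2, SRSF8 in 1 and SRSF4 in 0.

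Of 11 other RS-domain factors, 3 were called higher over the mean of the lines and 2 lower, near the 22.6% and 15.8% of all genes. LUC7L3, a U1-associated factor, rose by 0.55 (SE 0.09, adjusted p = 6.18e-05), from 49.7 ± 0.324 to 107 ± 4.56 CPM in Ishikawa-S33Y. That line had its largest rise (1.09), LUC7L3 was called in 2 lines, and its change in SNGM was 0.02. RBM39 rose by 0.36 (adjusted p = 7.65e-07) and PNN by 0.39 (adjusted p = 0.00980). RBM39 was called in 3 lines, with -0.08 in SNGM, and PNN only in Ishikawa-S33Y (0.96). U2AF2, the large subunit of the factor that binds the polypyrimidine tract, fell by 0.71 (SE 0.10, adjusted p = 1.33e-05), from 158 ± 4.50 to 70.5 ± 0.254 CPM in Ishikawa-S33Y. Its change was -1.16 there, -0.70 in Ishikawa, -0.56 in SNGM and -0.41 in HEC265, and it was called in 2 lines. TRA2A fell by 0.22 (adjusted p = 0.0244) and was called in 0 lines.

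Among the other kinases of SR proteins, SRPK2 rose by 0.18 (adjusted p = 0.0233), while SRPK1 (0.10), SRPK3 (0.27) and PRPF4B (-0.15) were not called. By line, SRPK2 was called only in Ishikawa-S33Y (0.48). Of the 8 tested DYRK and HIPK kinases, the nearest relatives of the CLKs, 1 was called, DYRK4 at 0.29 (adjusted p = 0.0237). Over all genes, 38.5% were called in either direction in this mean. By line, DYRK4 was called only in Ishikawa-S33Y (0.54). Among these kinases the largest negative value over the mean of the lines was HIPK2 at -0.30 (adjusted p = 0.186). HIPK4 did not pass the filter. No gene of these lists was called in the same direction in all 4 lines, as CLK1 to CLK4 were. Over all genes, 0.876% were called higher in all 4 lines and 0.794% lower. With shares this low, finding none in short lists does not set these genes apart from others.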

How the data were processed

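The authors deposited 1 table of log10(CPM + 1) values for 35238 gene symbols in 32 libraries of rRNA-depleted total RNA; the log10 scale was read from the values, whose back-transformed columns each sum to 1000000. Of these genes, 4366 were at 0 in every library. The submitters' processing notes name bcl2fastq, STAR, kallisto and GRCh38; the step that made the counts, its annotation and its use of strand are not given in the sources used here. Low values were whole multiples of 1 read in every library (100% within 0.1 of a whole read), which gave the depth. Values were converted to log2(CPM + 1) and genes above 1 CPM in at least 2 libraries (17011) were fitted with limma 3.58.1 in R 4.3.3, with 16 group means, 16 residual degrees of freedom, an intensity trend (4.90 prior degrees of freedom), Benjamini-Hochberg adjustment within each of 33 contrasts, and two-sided calls at adjusted p under 0.05. Fold changes are on the log2(CPM + 1) scale, which understates changes of low genes. The script was tested on simulated data. Libraries with the same replicate number did not deviate together in every pair (r from -0.59 to 0.85 over 8488 genes), so the numbers were not taken as pairs.

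The members and lists were chosen with earlier results of these data known. Genes named beside the CLKs were their pseudogenes, RefSeq neighbours, the 5 genes most correlated with each, and from each pathway list the members called alike in all 4 lines or else the largest rise and fall; SRSF1, SRSF4, SRSF8, SRSF10, RBM39, PNN, TRA2A, SRPK1 and SRPK2 were added after their values were seen. All 4 CLKs matched RefSeq symbols for positions and promoters. Alternatives were other pseudocounts, filters, scalings, spread models, covariates, a replicate block, limma voom on recovered reads, and leaving out libraries.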

Additional observations from a re-analysis of the deposited data

Results flagged for a closer look

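The following 5 values differ between lines under the same contrast, SM08502 against vehicle, by the limma test of the difference itself. The CLK3 response of HEC265 exceeded that of Ishikawa by 1.06, of Ishikawa-S33Y by 0.93 and of SNGM by 1.13 on the log2 scale. HEC265 was the lowest line for CLK3 under vehicle and the highest with the drug. The CLK1 response of SNGM was below that of Ishikawa-S33Y (-0.66), and that of HEC265 above SNGM (0.77). The lines received 80, 85, 350.7 and 149 nM SM08502 in the order Ishikawa, Ishikawa-S33Y, SNGM and HEC265, so dose and line cannot be told apart.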

How the results depend on the processing

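Direction and call held in 393 of 404 alternative values for SM08502 against vehicle (11 lost the call) and in 394 of 404 for the combination (10 lost it). They held in 393 of 404 for paclitaxel (3 gained a call, 8 changed sign), 374 of 404 for the combination against SM08502 (5 gained a call, 25 changed sign), 85 of 110 for called differences in response between lines, 169 of 180 for called vehicle differences and 179 of 180 for the departure from additivity. The replicate block changed the number of called members in 1 of 33 comparisons, the vehicle level of SNGM against Ishikawa-S33Y (1 instead of 2, CLK4 at 0.34 with adjusted p = 0.119). With crossed numbers in Ishikawa and SNGM, an alternative added after seeing the data, 3 members instead of 2 were called in the vehicle level of SNGM against Ishikawa-S33Y and against HEC265.

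Counts of called members moved as follows, and the cause was not tested. The share of all genes called in each of these fits is not given here, so the counts are only a description. Fitted on their own line, SM08502 called 2 members in Ishikawa and 0 in SNGM, and the combination 2 in Ishikawa. Paclitaxel in Ishikawa called 1 with the length score and 1 without the libraries under 5000000 reads, and 0 to 1 with 1 library left out. The combination against SM08502 called 0 to 3 in SNGM and 0 to 2 in the mean with 1 library left out. With the length score, vehicle differences counted 1 (Ishikawa-S33Y against Ishikawa), 2 (SNGM against Ishikawa), 1 (HEC265 against Ishikawa) and 4 (SNGM against Ishikawa-S33Y), and the response difference of SNGM and Ishikawa 1. With 1 library left out, vehicle differences from Ishikawa-S33Y counted 1 to 2 against Ishikawa, SNGM and HEC265. Response differences then counted 0 to 1 for SNGM against Ishikawa, HEC265 against Ishikawa, SNGM against Ishikawa-S33Y and HEC265 against Ishikawa-S33Y, and 1 for HEC265 against SNGM. The response difference of SNGM and Ishikawa counted 2 without libraries under 5000000 reads. That of SNGM and Ishikawa-S33Y counted 0 with no filter, with median re-centring and on the samples of those lines, and 2 with voom and 2 without libraries under 5000000 reads. That of HEC265 and SNGM counted 1 with no filter, median re-centring, quantile normalization, no intensity trend or the samples of those lines.

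Signs turned only among uncalled values. For paclitaxel, CLK2 in HEC265 was -0.015 after median re-centring, -0.0018 after quantile normalization and -0.10 to 0.18 with 1 library left out; CLK2 in Ishikawa was -0.10 to 0.22 with 1 left out; CLK4 in HEC265 was -0.036, -0.027 and, with the length score, -0.0072. For the combination against SM08502, CLK2 in Ishikawa was -0.017 in CPM without PLCG2, RIMBP3C and mitochondrial genes. CLK3 in SNGM was 0.0039 with voom and 0.11 without libraries under 5000000 reads, and CLK3 in HEC265 -0.0097 after median re-centring. The CLK2 mean was 0.0083 with voom, 0.015 with the length score and 0.014 without libraries under 5000000 reads, and the CLK3 mean 0.029, 0.033 and 0.053. With 1 library left out, the ranges were -0.11 to 0.14 for CLK2 and -0.044 to 0.24 for CLK3 in Ishikawa, -0.015 to 0.042 for CLK3 in Ishikawa-S33Y, -0.074 to 0.16 for CLK2 and -0.43 to 0.11 for CLK3 in SNGM, -0.027 to 0.031 for CLK3 in HEC265, and -0.044 to 0.019 and -0.080 to 0.055 for the CLK2 and CLK3 means. The departure of CLK4 ranged from -0.15 to 0.071. Shares per kb of transcript were not run. Depth limits the 2 shallow libraries, with as few as 49 reads of a member, and 2 libraries a group limit every test.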
